A study of Mus musculus with 20 samples.

Results

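The interaction between genotype and rapamycin asks, gene by gene, whether the loss of Acsl1 from the heart altered expression by a different amount in rapamycin-treated mice than in vehicle-treated mice. It was computed as the knockout-minus-control difference under rapamycin minus the same difference under vehicle, on the scale of log2(value + 1). All 20 of the 20 libraries of the series entered it, because every library belongs to 1 of the 4 groups that the contrast combines. A value below 0 means that the knockout difference was lower under rapamycin than under vehicle. It can arise from a knockout increase that was smaller under rapamycin or from a knockout decrease that was larger. It can also arise from an increase under vehicle beside a decrease under rapamycin.

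Poly(A) RNA from heart ventricles of male C57Bl/J6 mice was sequenced, with 5 libraries in each group. Acsl1H-/- mice, called knockout here, and Acsl1flox/flox mice, called control, both received tamoxifen at 75 mg/kg for 4 days from an age of 6 to 8 weeks, per the labels' protocols. Mice of either genotype were then given rapamycin at 1 mg/kg or vehicle daily for 2 weeks, and hearts were collected 2 weeks after tamoxifen. Every group therefore carries floxed Acsl1 alleles and tamoxifen exposure. The labels name no Cre line or promoter, and none of the 20 libraries is labelled as Cre with an intact, non-floxed Acsl1, so an effect of the recombinase and the loss of Acsl1 cannot be told apart. The submitters' design text calls the libraries of a group biological replicates, and p-values measure the spread between separate mice only as far as that text holds.

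Acsl1 encodes a long-chain acyl-CoA synthetase, the enzyme that activates fatty acids by joining them to coenzyme A before they are oxidized or stored. It is the main such enzyme of heart muscle, which normally draws most of its energy from fatty acids. mTOR is a kinase that, in its complex 1, promotes protein synthesis, ribosome production, nucleotide and lipid synthesis and cell growth, and restrains autophagy. Rapamycin binds FKBP12 and inhibits that complex. One of the factors downstream of mTOR complex 1 is ATF4, a transcription factor of amino acid and stress responses whose targets include the mitochondrial folate enzyme gene Mthfd2.

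The values are upper-quartile-scaled expression estimates, with an upper quartile between 996.6 and 1000 and between 14592 and 15605 genes above 0 in each library. Ventricular Myl2 was between 204684 and 681946 in all libraries. The atrial light chain gene Myl7 ranged from 3.976 to 10265, so the libraries differ widely in atrial transcripts. On the first principal component (33.7% of the variance), control vehicle 1 and 3 lay far from the rest, at 73.4 and 84.6 against -41.7 to 19.3 in the other 18. In the same pair, genes with long transcripts were low relative to genes with short ones, by -0.53 and -0.62 on the log2 scale against -0.19 to 0.31 elsewhere. Both belong to the group on which the interaction rests as its vehicle baseline, so values without them are given beside the interactions of named genes that change sign or move by over 1.5 times, and beside the counts and medians of the main lists. Each of the 4 pools that the labels name held all 4 groups.

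The targeted gene was checked first. Acsl1 (Entrez 14081) was between 6373 and 13431 in control vehicle hearts and between 740.5 and 1682 in knockout vehicle hearts. Under rapamycin it was between 10518 and 16661 in control hearts and between 630.6 and 1950 in knockout hearts. Knockout and control libraries stayed apart under vehicle as well as under rapamycin, with a knockout mean of 12.5% of control under vehicle and 9.68% under rapamycin. For each arm the two-sided exact permutation p was 0.00794, which is the lowest value that 252 regroupings can reach. The interaction for Acsl1 was -0.45 (SE 0.39, 95% interval -1.27 to 0.36), and -0.14 without control vehicle 1 and 3, so a difference in residual transcript between the arms was not detected. Esr1 (Entrez 13982), whose encoded receptor's ligand-binding part is commonly fused to tamoxifen-inducible Cre, averaged 147.9 and 182.3 in control hearts and 52657 and 45325 in knockout hearts, with an interaction of -0.55 (SE 0.29, 95% interval -1.16 to 0.06). Without control vehicle 1 and 3 the Esr1 interaction was -0.76 (limma, unadjusted p = 0.0098, adjusted p = 0.9994).

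No gene passed the interaction test. Of 13548 genes tested with limma, 0 had a Benjamini-Hochberg adjusted p under 0.05, which is 0% of those tested, and the lowest adjusted p was 0.523. At an unadjusted p under 0.05 there were 1124 genes, or 8.3%, of which 301 (2.22%) had an interaction above 0 and 823 (6.07%) below 0. The median interaction over all tested genes was -0.09, and 58.6% of genes lay below 0. That tilt depends on how the libraries are scaled. Quantile normalization gave 632 genes above 0 and 409 below, with a median over all genes of 0.03. Median-ratio rescaling gave 519 above and 571 below, with a median of -0.02. The interaction counts below with all 20 libraries are read against 2.22% and 6.07%. Counts without control vehicle 1 and 3 are read against 139 genes above 0 and 343 below of 13548 in that fit. It has fewer control vehicle libraries, so a lower count in it can come partly from lower precision.

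The precision of the test bounds what could be seen. The SE of the interaction had a median of 0.27, with quartiles of 0.20 and 0.39, and the 95% interval reached 0.56 to either side of the estimate at the median. For 8158 genes, or 60.2% of those tested, the interval lay within -1 and 1. For the remaining genes a difference between the arms of more than 2-fold lay within the interval.

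The count at an unadjusted p under 0.05 turned on single libraries. With control vehicle 1 and 3 both omitted it was 482 (139 above 0 and 343 below; 3.56%). Omitting control vehicle 1 alone gave 709 and control vehicle 3 alone 629. The count dropped also when knockout vehicle 2 (571), control rapamycin 4 (683), knockout rapamycin 3 (696) or knockout rapamycin 4 (619) was omitted. It was higher when control vehicle 4 (1734), control vehicle 5 (2402) or knockout vehicle 5 (2328) was omitted. The adjusted count was 0 in each of those fits.

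**Figure D1:**
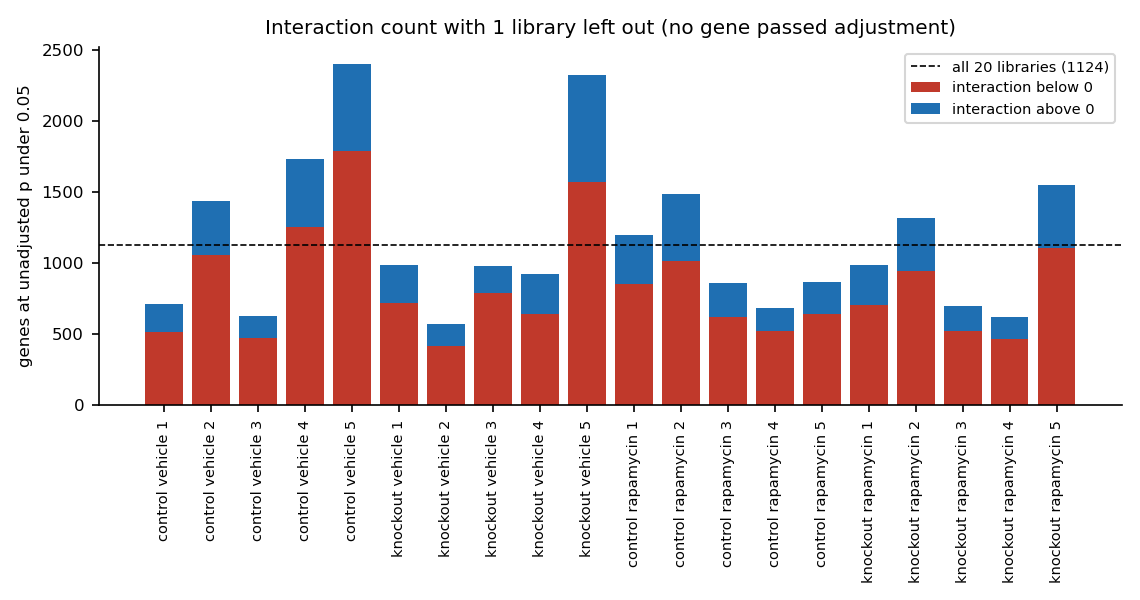
Bars give the number of genes at an unadjusted interaction p under 0.05 (y axis) after leaving out the library named on the x axis, split into interactions below 0 and above 0, and the dashed line marks 1124 genes with all 20 libraries. The count runs from 571 without knockout vehicle 2 to 2402 without control vehicle 5, and no gene passed adjustment in any of these fits.

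The median absolute knockout difference was 0.29 under vehicle and 0.11 under rapamycin. Under vehicle 33 genes passed at an adjusted p under 0.05 (0.244% of those tested), 27 higher (0.199%) and 6 lower (0.0443%) in knockout hearts. Under rapamycin 3 passed (0.0221%), 2 higher (0.0148%) and 1 lower (0.00738%). The calls without control vehicle 1 and 3 were 4 under vehicle and 4 under rapamycin (0.0295% each). Rapamycin against vehicle gave 0 calls (0%) in control hearts and 1, lower, in knockout hearts (0.00738%). At an unadjusted p under 0.05 those same drug comparisons gave 2024 genes (14.9%) and 774 genes (5.71%). Control vehicle 1 and 3 enter the vehicle difference and the drug comparison in control hearts. The median absolute differences and these drug counts were not computed without them, so the gap between the arms may rest partly on that pair. The 1 gene called for the drug was Pdhx, which encodes the component that anchors the dihydrolipoamide dehydrogenase of the pyruvate dehydrogenase complex. Knockout libraries had 4476, 4914, 4869, 3964 and 3514 under vehicle, and had 2832, 2763, 2890, 2381 and 3156 under rapamycin, without overlap, and Pdhx fell by 0.63 (limma, adjusted p = 0.0467). In control hearts it was 3394 to 3708 under vehicle and 2606 to 3166 under rapamycin, also without overlap, and its interaction was -0.35 (SE 0.14, adjusted p = 0.523). Across all tested genes, the knockout effects in the 2 arms, which share no library, had a Pearson r of 0.27, given as a description.

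All 33 genes called under vehicle had the same sign under rapamycin, and 32 had a smaller absolute difference there. Their median absolute difference was 1.05 under vehicle and 0.54 under rapamycin. Because they were chosen on the vehicle libraries, a smaller value in the other arm is partly fixed by the choice, and no test is drawn from it. For 20 of the 33 the interaction had an unadjusted p under 0.05, against 8.3% of all tested genes, and for none did it pass adjustment. The vehicle difference is itself part of the interaction, so that count too is partly fixed by the choice. Acsl1, Esr1 and A1cf were called in both arms. A1cf, an RNA editing cofactor gene named only because it is 1 of these 3, was listed at 0 in all 10 control libraries, between 18.7 and 37.8 in knockout vehicle and between 5.74 and 40.9 in knockout rapamycin libraries, with an interaction of -0.66 (SE 0.62). The total of 33 turned on which libraries entered. Leaving out control vehicle 1 gave 8 calls, control vehicle 3 gave 9, and the pair together gave 4. Omitting knockout vehicle 1 left 11 and omitting knockout vehicle 2 left 8. The total climbed to 343 when control vehicle 4 was omitted, to 3089 for control vehicle 5, to 2565 for knockout vehicle 5 and to 50 for knockout rapamycin 5.

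**Figure D2:**
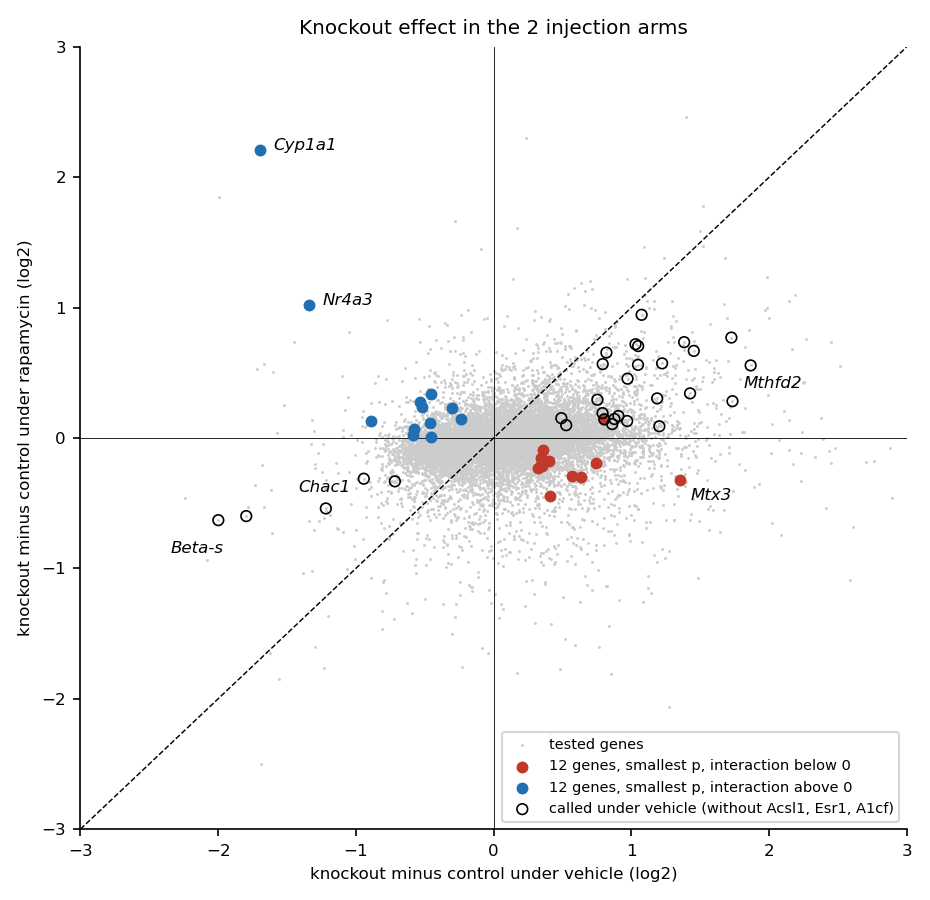
Each point is a tested gene, with its knockout-minus-control difference under vehicle on the x axis and under rapamycin on the y axis (both log2), and the dashed line marks equal differences. Open circles, the genes called under vehicle apart from Acsl1, Esr1 and A1cf, lie between the x axis and the dashed line, and the red and blue groups of 12 genes each lie on opposite sides of that line; 14 genes beyond 3 on either axis are not drawn.

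Among the genes called under vehicle, those with the largest knockout differences include genes of matrix and haemoglobin proteins, and no interaction among them passed adjustment. Itgbl1, an integrin-beta-like secreted protein gene, averaged 107.2 in control and 359.6 in knockout hearts under vehicle and, in the same order, 159.0 and 270.5 under rapamycin, with an interaction of -0.96 (SE 0.44) and -0.61 without control vehicle 1 and 3. Svep1, which encodes an extracellular matrix adhesion protein, averaged 266.6 and 626.9 under vehicle and 354.6 and 558.5 under rapamycin, with an interaction of -0.65 (SE 0.36). For Gabra3, a subunit gene of the GABA-A receptor, the means were 63.1 and 138.2 under vehicle and 68.1 and 134.8 under rapamycin. Its interaction was -0.13 (SE 0.31), the value nearest 0 of these, and -0.005 without that pair.

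The 12 genes with the smallest unadjusted p below 0, among those with a mean value of at least 100, had interactions from -1.68 to -0.45, with p from 0.000547 to 0.00225. None passed adjustment, and they were picked for their p, so their values are a description. All 12 had a positive knockout difference under vehicle, and 1 of the 12 had a positive one under rapamycin. The medians were 0.41 and -0.21. Rapamycin against vehicle had a median of 0.39 in control hearts and -0.27 in knockout hearts. The interaction was below 0 in each of the 4 pools for all 12 and stayed below 0 for all 12 without control vehicle 1 and 3. Both are partly fixed by the choice, since the same libraries gave the p.

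Mtx3, which encodes a metaxin of the mitochondrial outer membrane, had the smallest p of this group. Its values were 71.4, 53.0, 23.2, 90.9 and 94.3 in control vehicle libraries 1 to 5 and 131.7, 237.1, 163.0, 154.1 and 110.7 in knockout vehicle libraries. Under rapamycin they were 100.9, 114.0, 149.3, 103.8 and 119.2 in control and 106.1, 113.3, 75.6, 80.8 and 93.2 in knockout libraries. The genotypes did not overlap under vehicle and overlapped under rapamycin. The interaction was -1.68 (SE 0.41, 95% interval -2.53 to -0.83, limma, adjusted p = 0.523), and it was -1.32 without control vehicle 1 and 3.

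Tcirg1, which encodes a membrane subunit of the proton pump of lysosomes and osteoclasts, was 102.7, 100, 83.5, 77.5 and 136.4 in control vehicle and 140.7, 188.8, 137.2, 167.1 and 136.7 in knockout vehicle libraries. It was 123.4, 120.8, 139.2, 164.3 and 186.8 in control rapamycin and 101.9, 120.5, 134.0, 113.4 and 120.5 in knockout rapamycin libraries. The genotypes did not overlap under vehicle, although the lowest knockout value, 136.7, was close to the highest control value, 136.4. All 5 knockout libraries under rapamycin were below all 5 under vehicle. The interaction was -0.93 (SE 0.23, 95% interval -1.41 to -0.45, adjusted p = 0.523).

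Tardbp encodes TDP-43, an RNA-binding protein of splicing and RNA stability. It ran from 1157 to 1466 in control vehicle, 1389 to 1902 in knockout vehicle, 1454 to 1743 in control rapamycin and 1182 to 1459 in knockout rapamycin libraries, with an interaction of -0.55 (SE 0.14). Sh3bgr, a gene of heart and skeletal muscle, ran from 2244 to 3818 in control vehicle and 3428 to 4103 in knockout vehicle libraries. Under rapamycin it ran from 2884 to 3909 in control and 1928 to 3514 in knockout libraries, with an interaction of -0.86 (SE 0.22). Slc20a1, which encodes a sodium-dependent phosphate transporter, was lower in all control vehicle libraries (113.7 to 166.7) than in the knockout vehicle libraries (174.7 to 274.2), and overlapped between genotypes under rapamycin (207.5 to 307.8 in control, 170.1 to 287.5 in knockout). Its interaction was -0.86 (SE 0.24). The other members were Aagab (-0.45), Zcchc9 (-0.58), Ppid (-0.57), Srbd1 (-0.66), Ccdc137 (-0.93), Ankra2 (-0.50) and Dynlt3 (-0.53). Of the 12, Srbd1 was itself called for the knockout under vehicle (adjusted p = 0.00993 with limma).

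The 12 genes with the smallest unadjusted p above 0 had interactions from 0.39 to 3.91, with p from 0.00256 to 0.00644, and none passed adjustment. All 12 had a negative knockout difference under vehicle and a positive one under rapamycin, with medians of -0.53 and 0.19. The interaction was above 0 in every pool for 11 of the 12, and Nr4a3 was the exception, at -0.09 in pool 3. All 12 stayed above 0 without control vehicle 1 and 3. These genes too were picked for their p in the same libraries, so both agreements are partly fixed by the choice.

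Cyp1a1, which encodes the cytochrome P450 induced by the aryl hydrocarbon receptor, had the largest estimate, 3.91 (SE 1.20, 95% interval 1.41 to 6.40, limma, adjusted p = 0.523). Its values were 317.0, 60.8, 85.9, 10.4 and 140.8 in control vehicle and 13.5, 11.2, 17.9, 74.9 and 29.4 in knockout vehicle libraries. Under rapamycin they were 183.2, 15.3, 13.5, 32.9 and 33.8 in control and 84.0, 76.0, 630.6, 412.4 and 62.5 in knockout libraries. The genotypes overlapped in both arms, and values spread widely within groups.

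Nr4a3, an orphan nuclear receptor gene of the immediate early response, was 98.2, 96.1, 71.9, 229.5 and 123.4 in control vehicle and 58.4, 52.8, 35.8, 20.2 and 76.1 in knockout vehicle libraries. It was 91.6, 244.9, 168.4, 206.4 and 24.9 in control rapamycin and 210.7, 272.6, 115.1, 166.7 and 631.8 in knockout rapamycin libraries. The knockout libraries of the 2 arms did not overlap, while the genotypes overlapped within each arm. The interaction was 2.36 (SE 0.76, 95% interval 0.78 to 3.95).

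Orai1 encodes the pore subunit of store-operated calcium channels. It ran from 496.3 to 716.9 in control vehicle, 319.2 to 508.7 in knockout vehicle, 425.9 to 528.6 in control rapamycin and 426.1 to 632.3 in knockout rapamycin libraries, with an interaction of 0.65 (SE 0.20). Rbm4b, which encodes an RNA-binding protein, ran from 202.2 to 251.7 in control vehicle and 114.6 to 187.7 in knockout vehicle libraries, without overlap. It ran from 147.6 to 224.5 and from 188.9 to 223.8 under rapamycin, with an interaction of 0.76 (SE 0.22). The others were Ythdf2 (0.39), a reader of methylated adenosine in mRNA, Cacnb1 (0.81), a calcium channel beta subunit gene, Sugp1 (0.53), Scand1 (1.02), St3gal6 (0.46), Car4 (0.79), Cln6 (0.61, and 0.40 without control vehicle 1 and 3) and Csda (0.57).

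**Figure D3:**
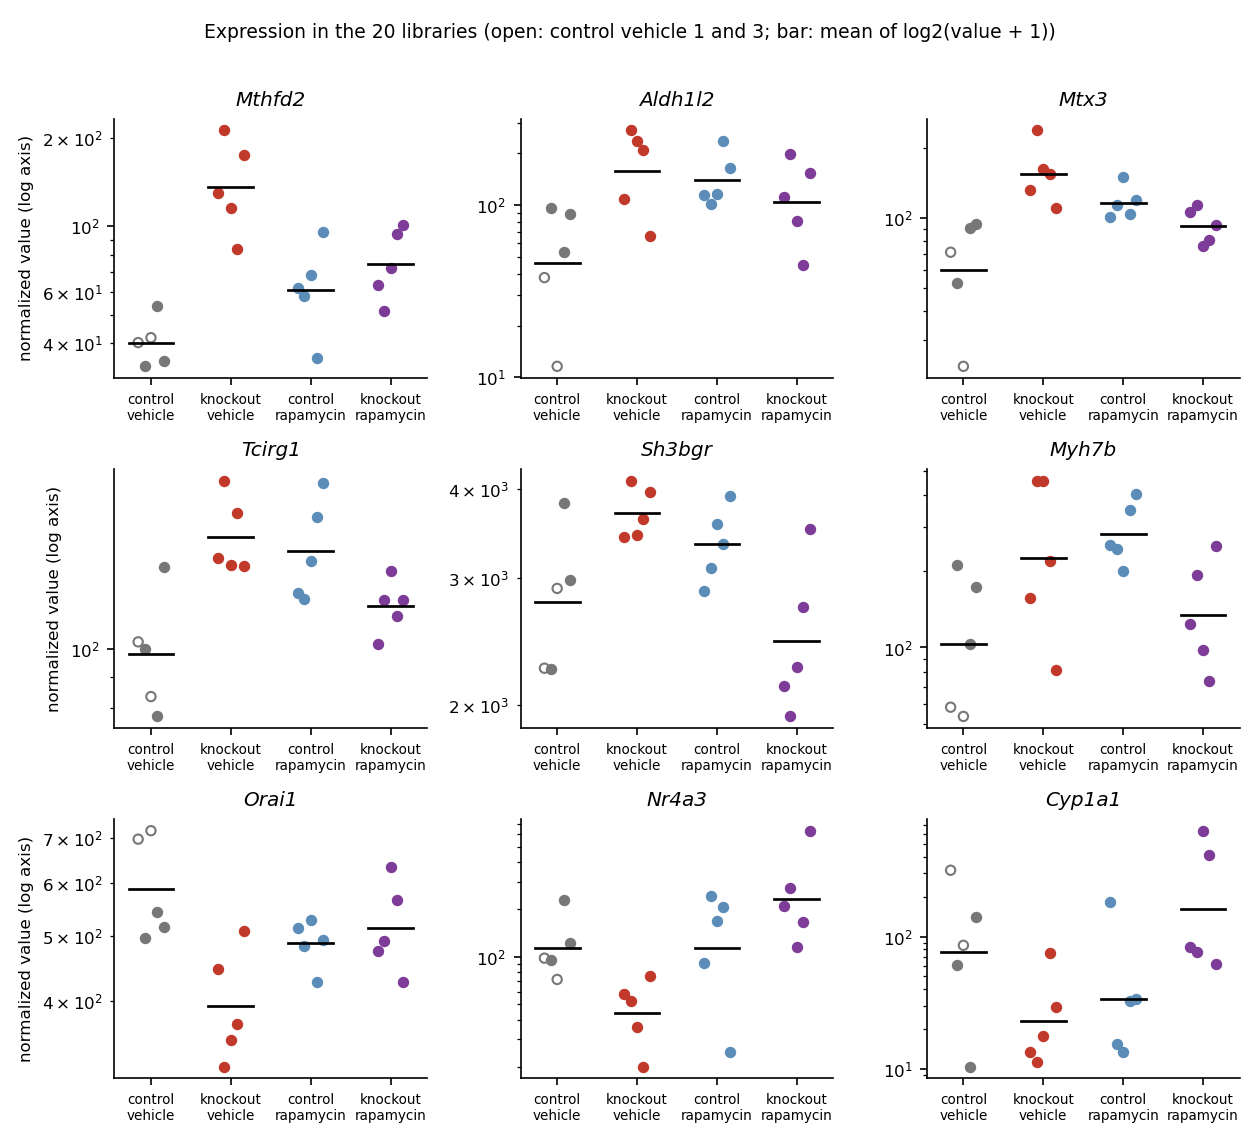
Each panel gives 1 gene's normalized value (log axis) in the 20 libraries by group, with open circles for control vehicle 1 and 3 and a bar at the mean of log2(value + 1). Mthfd2 and Mtx3 separate the genotypes under vehicle and overlap under rapamycin, while Cyp1a1 and Nr4a3 spread widely within groups.

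Targets of ATF4 were followed as a list of 37 genes, of which 34 passed the filter on low values. None was called for the interaction, 2 had an unadjusted p under 0.05 above 0 and 4 below 0, and 14 lay above 0 and 20 below. Without control vehicle 1 and 3 the counts at that p were 0 above and 6 below. The list median was -0.18 against -0.09 for all tested genes, -0.18 without control vehicle 1 and 3, and 0.001 under quantile normalization. The members below 0 with the smallest p were Mthfd2, Ddit3, Aldh1l2 and Gdf15.

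Mthfd2, the mitochondrial folate enzyme gene, was 40.2, 33.4, 41.8, 53.7 and 34.8 in control vehicle and 130.2, 212.4, 115.3, 83.6 and 174.7 in knockout vehicle libraries, with no overlap. It was 61.7, 57.8, 68.5, 35.5 and 96.1 in control rapamycin and 63.4, 51.7, 72.2, 94.5 and 101.1 in knockout rapamycin libraries, which overlapped. Under vehicle it rose by 1.74 in knockout hearts (limma, adjusted p = 0.00625), and the difference under rapamycin was 0.28 (adjusted p = 0.9996). The interaction was -1.45 (SE 0.38, 95% interval -2.24 to -0.67, limma, adjusted p = 0.523), between -2.16 and -1.21 in the 4 pools and -1.47 without control vehicle 1 and 3.

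Aldh1l2, which encodes the mitochondrial enzyme next to Mthfd2 in the folate pathway, was 38.0, 96.1, 11.6, 53.7 and 88.5 in control vehicle and 107.8, 270.9, 236.6, 207.4 and 65.7 in knockout vehicle libraries. It was 114.0, 102.1, 115.6, 235.3 and 163.7 in control rapamycin and 111.6, 198.0, 80.8, 44.7 and 154.5 in knockout rapamycin libraries. The interaction was -2.15 (SE 0.72) and -1.43 without control vehicle 1 and 3, whose values of 38.0 and 11.6 were the lowest of all 20. Ddit3, which encodes the stress factor CHOP, ran from 156.5 to 215.8 in control vehicle and 224.3 to 283.2 in knockout vehicle libraries, without overlap. Under rapamycin it ran from 184.3 to 288.9 in control and 155.4 to 237.1 in knockout libraries, with an interaction of -0.65 (SE 0.20). Gdf15, a secreted stress cytokine gene, ran from 17.4 to 71.4, 54.7 to 129.2, 20.6 to 64.1 and 12.4 to 78.4 in the same order of groups. Its interaction was -1.49 (SE 0.63), and pool 1 alone gave a value above 0 (0.16).

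Chac1, another ATF4 target, which encodes an enzyme that breaks down glutathione, went the other way. It was 397.3, 400.2, 631.1, 301.0 and 435.4 in control vehicle and 142.2, 165.2, 250.5, 121.0 and 266.4 in knockout vehicle libraries, and it fell by 1.22 (adjusted p = 0.0305 with limma). Under rapamycin it was 437.4, 381.0, 244.7, 262.9 and 258.0 in control and 148.8, 243.9, 211.3, 264.6 and 208.0 in knockout libraries. Its interaction was 0.68 (SE 0.34, 95% interval -0.02 to 1.38), and 0.51 without control vehicle 1 and 3. Mthfd2 and Chac1 had opposite knockout differences under vehicle, and both estimates were smaller under rapamycin. Both genes are among the 33 called under vehicle, so a smaller value in the other arm is partly fixed by that choice. Neither interaction passed adjustment.

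The 250 bases before the annotated start were searched on both strands for the core of the ATF4 response element, TGATGNAA. Of the 37 list genes, 31 matched a promoter of RefSeq (GRCm38.p6), and 10 of the 31 held the core, against 3.91% of 27025 genes in that table. The list was chosen as targets of ATF4, so its share is partly fixed by that choice and no support is drawn from it. The windows of Chac1 and Mthfd2 are shown because the pair had opposite knockout differences under vehicle. Capitals mark the match, which for Chac1 reads on the minus strand of the printed sequence, and the Mthfd2 window held no match to these letters. The Chac1 window is chr2:119350992-119351241 on the plus strand and the Mthfd2 window is chr6:83317605-83317854 on the minus strand, each printed 5′ to 3′ along its gene.
Chac1: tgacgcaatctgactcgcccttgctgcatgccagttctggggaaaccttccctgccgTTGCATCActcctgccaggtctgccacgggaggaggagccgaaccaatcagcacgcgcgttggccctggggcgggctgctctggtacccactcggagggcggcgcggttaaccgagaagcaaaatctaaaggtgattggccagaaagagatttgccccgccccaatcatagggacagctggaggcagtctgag
Mthfd2: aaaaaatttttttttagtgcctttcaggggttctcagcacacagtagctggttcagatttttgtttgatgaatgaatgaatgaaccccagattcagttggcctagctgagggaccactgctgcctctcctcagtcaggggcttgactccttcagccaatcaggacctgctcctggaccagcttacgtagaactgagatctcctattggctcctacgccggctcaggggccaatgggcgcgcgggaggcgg
A match describes the letters only.

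The regulators of mTOR did not share a direction. Of 39 tested genes of mTOR complexes and their regulators, 0 were called, 2 had an unadjusted p under 0.05 above 0 and 0 below (1 and 0 without control vehicle 1 and 3), and the list median was 0.01. Mtor itself averaged 1359 in control vehicle, 1818 in knockout vehicle, 1498 in control rapamycin and 1744 in knockout rapamycin hearts, with an interaction of -0.31 (SE 0.35) that turned to 0.18 without control vehicle 1 and 3. Eif4ebp1 encodes the translation repressor 4E-BP1, a direct mTOR substrate, and here it belongs also to the ATF4 list. It ran from 2022 to 3840 in control vehicle, 1300 to 2137 in knockout vehicle, 1707 to 2711 in control rapamycin and 1687 to 2521 in knockout rapamycin libraries. Its interaction was 0.56 (SE 0.25) and 0.33 without control vehicle 1 and 3. Rps6kb1, the gene of S6 kinase 1, had -0.58 (SE 0.29) and -0.25 without the pair, and Akt1s1, the gene of the inhibitor PRAS40, 0.36 (SE 0.19) and 0.21. Nprl3, a subunit gene of the GATOR1 complex that restrains mTOR complex 1, had 0.28 (SE 0.13). Transcript level says nothing of the phosphorylation through which mTOR acts on these proteins, which was not measured here.

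Of 77 cytosolic ribosomal protein genes, 75 had an interaction above 0 and 4 had an unadjusted p under 0.05, all 4 above 0, with a list median of 0.46. Without control vehicle 1 and 3 the counts at that p were 0 above 0 and 1 below. The median was then 0.11, and it was 0.006 with the long-minus-short transcript measure as a covariate. That measure was computed from the expression values of these same libraries and can include genes of the list. A shift of the median with it can therefore be partly built in. Rpl28 ran from 4353 to 7063 in control vehicle, 2628 to 5325 in knockout vehicle, 3325 to 5213 in control rapamycin and 3430 to 5275 in knockout rapamycin libraries, with an interaction of 0.66 (SE 0.27) and 0.42 without that pair. The highest Rpl28 values of all 20 libraries, 6652 and 7063, were those of control vehicle 1 and 3. Reads of ribosomal protein genes can be shared with processed pseudogenes, so the values of single genes are uncertain.

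Oxidative phosphorylation genes, which encode subunits of the respiratory chain and ATP synthase, also lay mostly above 0, whereas the 24 citric acid cycle genes divided into 11 above and 13 below. Of 76 tested oxidative phosphorylation genes, 69 lay above 0, 1 had an unadjusted p under 0.05 above 0 and 1 below (0 and 1 without control vehicle 1 and 3). The median was 0.35, 0.03 without control vehicle 1 and 3, and -0.05 with the transcript length covariate. Cox5b, a cytochrome c oxidase subunit gene, was 30469, 19027, 29984, 15999 and 16833 in control vehicle and 14135, 9112, 10131, 13501 and 18561 in knockout vehicle libraries. Under rapamycin it ran from 11268 to 18698 in control and 12993 to 17603 in knockout libraries, with an interaction of 0.74 (SE 0.29) and 0.41 without the pair. Ndufs1, which encodes the largest subunit of complex I, lay below 0, at -0.64 (SE 0.28) and -0.42 without the pair. The proteasome list had a median of 0.26, 0.005 without the pair and -0.06 with the length covariate. Here too the covariate comes from the same expression values and can include genes of these lists. The part of the 2 libraries' length pattern in these medians was not tested beyond these values.

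Of 24 tested glycolysis genes, 4 had an unadjusted p under 0.05 above 0 and 0 below, with a median of 0.28. Without control vehicle 1 and 3 none had such a p (0 above and 0 below), and the median was 0.07. Slc2a1, which encodes the insulin-independent glucose transporter GLUT1, was 1071, 1042, 979.1, 722.8 and 760.5 in control vehicle and 574.9, 486.7, 779.3, 677.0 and 738.8 in knockout vehicle libraries. It ran from 519.6 to 930.8 in control rapamycin and 666.7 to 926.1 in knockout rapamycin libraries, with an interaction of 0.59 (SE 0.23, 95% interval 0.11 to 1.08). Slc2a4, the gene of the insulin-responsive transporter GLUT4, had 0.32 (SE 0.21) and 0.08 without control vehicle 1 and 3, and Hk2, hexokinase 2, -0.55 (SE 0.32) and -0.21.

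Of 27 tested fatty acid oxidation genes, 2 had an unadjusted p under 0.05 above 0 and 0 below (0 and 0 without control vehicle 1 and 3), with a median of 0.12, 0.02 without the pair and -0.05 under quantile normalization. Cd36, the fatty acid uptake receptor gene, had 0.31 (SE 0.14), and between 0.003 and 0.37 over the alternatives. Mlycd, the gene of malonyl-CoA decarboxylase, had 0.45 (SE 0.22), and between 0.31 and 0.52 over them. Cpt1b, the gene of the carnitine palmitoyltransferase that admits fatty acids to mitochondria, averaged 19941 and 19789 under vehicle and 18723 and 21054 under rapamycin, in control and knockout hearts, with an interaction of 0.17 (SE 0.15) and 0.06 without the pair. The targets of the PPAR receptors had a median of 0.08 over 29 tested genes, with 1 above 0 and 0 below at an unadjusted p under 0.05 (0 and 1 without the pair). For Pdk4, the kinase gene that shuts off glucose oxidation, the interaction was -0.02 with an SE of 0.77, so neither a large nor a small difference can be read from it. Ppara had -0.33 (SE 0.33) and Ppargc1a -0.15 (SE 0.42). Without control vehicle 1 and 3 these genes were on the other side of 0, with Pdk4 at 0.55, Ppara at 0.04 and Ppargc1a at 0.20.

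Genes of hypertrophy and the fetal heart program lay mostly below 0. Of 27 tested, 20 were below 0, 5 of them at an unadjusted p under 0.05 (3 without control vehicle 1 and 3) and 0 above, with a list median of -0.48 and -0.42 without control vehicle 1 and 3. Myh7b, a slow myosin heavy chain gene that hosts a microRNA, was 58.0, 211.9, 53.4, 102.8 and 172.7 in control vehicle and 157.2, 454.1, 457.3, 218.9 and 81.3 in knockout vehicle libraries. It was 254.2, 244.9, 200.9, 348.3 and 405.7 in control rapamycin and 124.0, 193.7, 97.9, 73.9 and 252.3 in knockout rapamycin libraries. The interaction was -2.18 (SE 0.65, 95% interval -3.54 to -0.82), below 0 in each pool and -1.59 without control vehicle 1 and 3, which had the lowest values. The genotypes overlapped in both arms.

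Myh7, the beta myosin heavy chain gene of the fetal ventricle, was 7235, 17422, 6265, 21139 and 20787 in control vehicle and 27941, 38247, 24835, 31451 and 18928 in knockout vehicle libraries. Under rapamycin it ran from 24379 to 28119 in control and 21455 to 38158 in knockout libraries. The interaction was -1.04 (SE 0.41) and -0.42 without control vehicle 1 and 3, whose values were the lowest of the 20. Ankrd1, a stretch-responsive cofactor gene, ran from 4016 to 12744, 8540 to 26946, 9544 to 25185 and 14503 to 18912 in control vehicle, knockout vehicle, control rapamycin and knockout rapamycin libraries, with -1.02 (SE 0.43). Xirp2, which encodes an actin-binding repeat protein, had -1.74 (SE 0.73) and -0.89 without the pair.

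Nppa, the gene of atrial natriuretic peptide, ran from 1295 to 5900 in control vehicle, 4087 to 38847 in knockout vehicle, 1431 to 17827 in control rapamycin and 5733 to 34858 in knockout rapamycin libraries, with -1.71 (SE 0.97, 95% interval -3.73 to 0.30). Nppb had -0.48 (SE 1.05) and -1.40 without control vehicle 1 and 3, and Acta1, skeletal alpha-actin, had -0.99 (SE 0.92). Their intervals are wide because values within a group varied severalfold. Nppa is abundant in atrium, and the summed atrial and conduction markers also varied, from 7581 to 10944 in control vehicle, 9888 to 76248 in knockout vehicle, 8590 to 43882 in control rapamycin and 14862 to 72167 in knockout rapamycin libraries. Of 15 tested atrial markers 11 lay below 0, with a median of -0.70 and -0.24 without control vehicle 1 and 3. The median of the hypertrophy list was -0.35 with the atrial level as a covariate. That level was computed from Myl7, Myl4, Sln and Bmp10 in these same libraries. Myl4 also had the lowest interaction of the hypertrophy list, -3.99, so the list and the covariate are not separate. The part of atrial tissue in these values was otherwise not tested.

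Genes of the extracellular matrix lay below 0 as a group. All 21 tested collagen genes had an interaction below 0, from -1.66 to -0.52, 6 of them at an unadjusted p under 0.05 and 0 of them without control vehicle 1 and 3, and 1 listed collagen gene was under the filter. The list median was -0.91 against -0.09 for all tested genes, -0.59 without control vehicle 1 and 3, and between -1.14 and -0.59 over the alternatives. The list's median knockout difference was 0.97 under vehicle and 0.01 under rapamycin, and the median rapamycin difference was 0.65 in control and -0.33 in knockout hearts. Because fewer cells of a type and less RNA per cell give the same bulk value, neither can be read from these lists.

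Col8a1, a short-chain collagen gene of vessels and injured heart, was 279.0, 296.2, 220.4, 523.1 and 429.6 in control vehicle and 1118, 1414, 817.1, 449.4 and 1000 in knockout vehicle libraries, and it rose by 1.43 (limma, adjusted p = 0.0413). Under rapamycin it was 637.4, 406.5, 473.6, 523.1 and 749.1 in control and 528.9, 490.7, 689.0, 732.0 and 1207 in knockout libraries. The interaction was -1.08 (SE 0.42, 95% interval -1.95 to -0.22) and -0.80 without control vehicle 1 and 3. Col16a1, which encodes a fibril-associated collagen, averaged 83.5 and 236.3 under vehicle and 166.8 and 209.5 under rapamycin, with -1.30 (SE 0.52). Col4a3 and Col4a4, which encode chains of a basement membrane collagen and lie head to head in the genome, had -1.40 (SE 0.57) and -1.38 (SE 0.53), and -0.72 and -0.82 without the pair.

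Of 34 tested genes of the activated fibroblast matrix, 31 lay below 0, 4 of them at an unadjusted p under 0.05 (2 without control vehicle 1 and 3) and 0 above, with a median of -0.67 and -0.41 without the pair. Spp1, which encodes osteopontin, was between 2.232 and 20.86 in control vehicle, 9.94 and 254.5 in knockout vehicle, 3.367 and 95.33 in control rapamycin and 3.436 and 29.21 in knockout rapamycin libraries. Its interaction of -3.29 (SE 1.17) rests on low values that spread widely, and pool 3 alone gave 1.72. Ccdc80, a matrix protein gene, had -0.89 (SE 0.39) and -0.50 without the pair, and Ddr2, a collagen receptor gene, -0.71 (SE 0.31) and -0.32. Fap, the gene of fibroblast activation protein, had -0.68 (SE 0.31).

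The summed fibroblast markers were 68652 to 86840 in control vehicle, 95001 to 160672 in knockout vehicle, 78665 to 99580 in control rapamycin and 99707 to 160664 in knockout rapamycin libraries. The genotypes did not overlap in either arm. Of the 18 markers, 14 had an interaction below 0, 1 at an unadjusted p under 0.05 (0 without control vehicle 1 and 3), with a median of -0.33. Endothelial markers had a median of -0.02 over 18 genes, and macrophage markers -0.03 over 20, with 0 at an unadjusted p under 0.05 in either list, and 1 below 0 among the endothelial markers without the pair. The T cell genes Cd3e, Cd3d and Cd8a averaged 3.25, 4.42 and 3.75, near the lower end of what was measured.

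**Figure D4:**
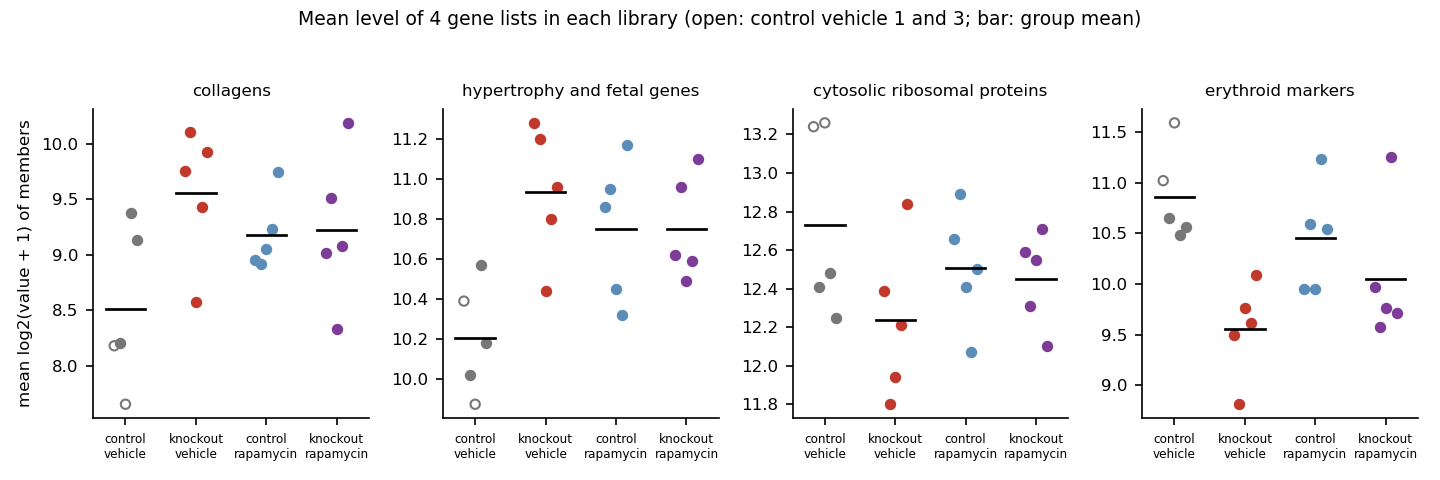
Points give the mean log2(value + 1) of the members of 4 gene lists in each library by group, with open circles for control vehicle 1 and 3 and bars for group means. The control vehicle group has the lowest bar for the collagens and the hypertrophy genes and the highest for the ribosomal protein and erythroid genes, with control vehicle 3 at the extreme of its group in each panel.

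Erythroid markers, which reflect red cells in the tissue, had the largest list median, 1.17, with 7 of 8 genes above 0, 3 of them at an unadjusted p under 0.05 and 0 below. Without control vehicle 1 and 3 none had such a p (0 above and 0 below), and the median was 0.76. Beta-s, a beta-globin gene as the file names it, was 61652, 32138, 70934, 29250 and 25898 in control vehicle and 8689, 6142, 8306, 11841 and 19869 in knockout vehicle libraries, without overlap, and it fell by 2.00 under vehicle (limma, adjusted p = 0.0289). It was 21026, 44950, 16561, 44835 and 31174 in control rapamycin and 17348, 15969, 13180, 45407 and 14862 in knockout rapamycin libraries. The interaction was 1.37 (SE 0.54, 95% interval 0.24 to 2.50) and 0.89 without that pair. Hba-a2, an alpha-globin gene, had 1.20 (SE 0.52) and 0.78 without the pair, and Alas2, the heme synthesis gene of red cells, 1.14 (SE 0.55) and 0.73. Near-identical globin genes can share reads, so the split between copies is uncertain.

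Heat shock genes gave mixed directions. Of 17 tested, 1 had an unadjusted p under 0.05 above 0 and 4 below (2 and 1 without control vehicle 1 and 3), with a median of -0.13. Hsph1, which encodes a large chaperone of the HSP110 family, was 671.9, 786.7, 438.5, 1577 and 1015 in control vehicle and 1772, 2143, 1577, 1695 and 1495 in knockout vehicle libraries. Under rapamycin it ran from 971.2 to 1604 in control and 939.9 to 1874 in knockout libraries. Its interaction was -1.14 (SE 0.37) and -0.74 without control vehicle 1 and 3. Hspd1, the mitochondrial chaperonin gene, had -1.07 (SE 0.43) and -0.52 without the pair, and Hsp90aa1, the inducible HSP90 gene, -0.87 (SE 0.37) and -0.51.

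Casq1, the fast skeletal calsequestrin gene, had its larger knockout difference under rapamycin, -1.81 (adjusted p = 0.690 with limma), against 0.17 under vehicle. It was 145.1, 121.6, 150.8, 466.5 and 140.8 in control vehicle and 269.5, 238.3, 73.6, 180.1 and 366.8 in knockout vehicle libraries. It was 538.3, 840.3, 306.4, 266.8 and 526.7 in control rapamycin and 70.3, 228.1, 104.8, 91.1 and 236.4 in knockout rapamycin libraries, without overlap. The interaction was -1.97 (SE 0.64, 95% interval -3.30 to -0.64). The skeletal muscle markers were divided. Of the 14 tested, 9 lay below 0 and 5 above, beside 58.6% of all tested genes below 0. At an unadjusted p under 0.05 there were 1 above 0 and 2 below (0 and 1 without control vehicle 1 and 3). The median was -0.47, and -0.32 without that pair, and Tnni2 had the highest interaction of the list, 0.895. Myh2 and Tnnt3 averaged 3.15 and 3.13.

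**Figure D5:**
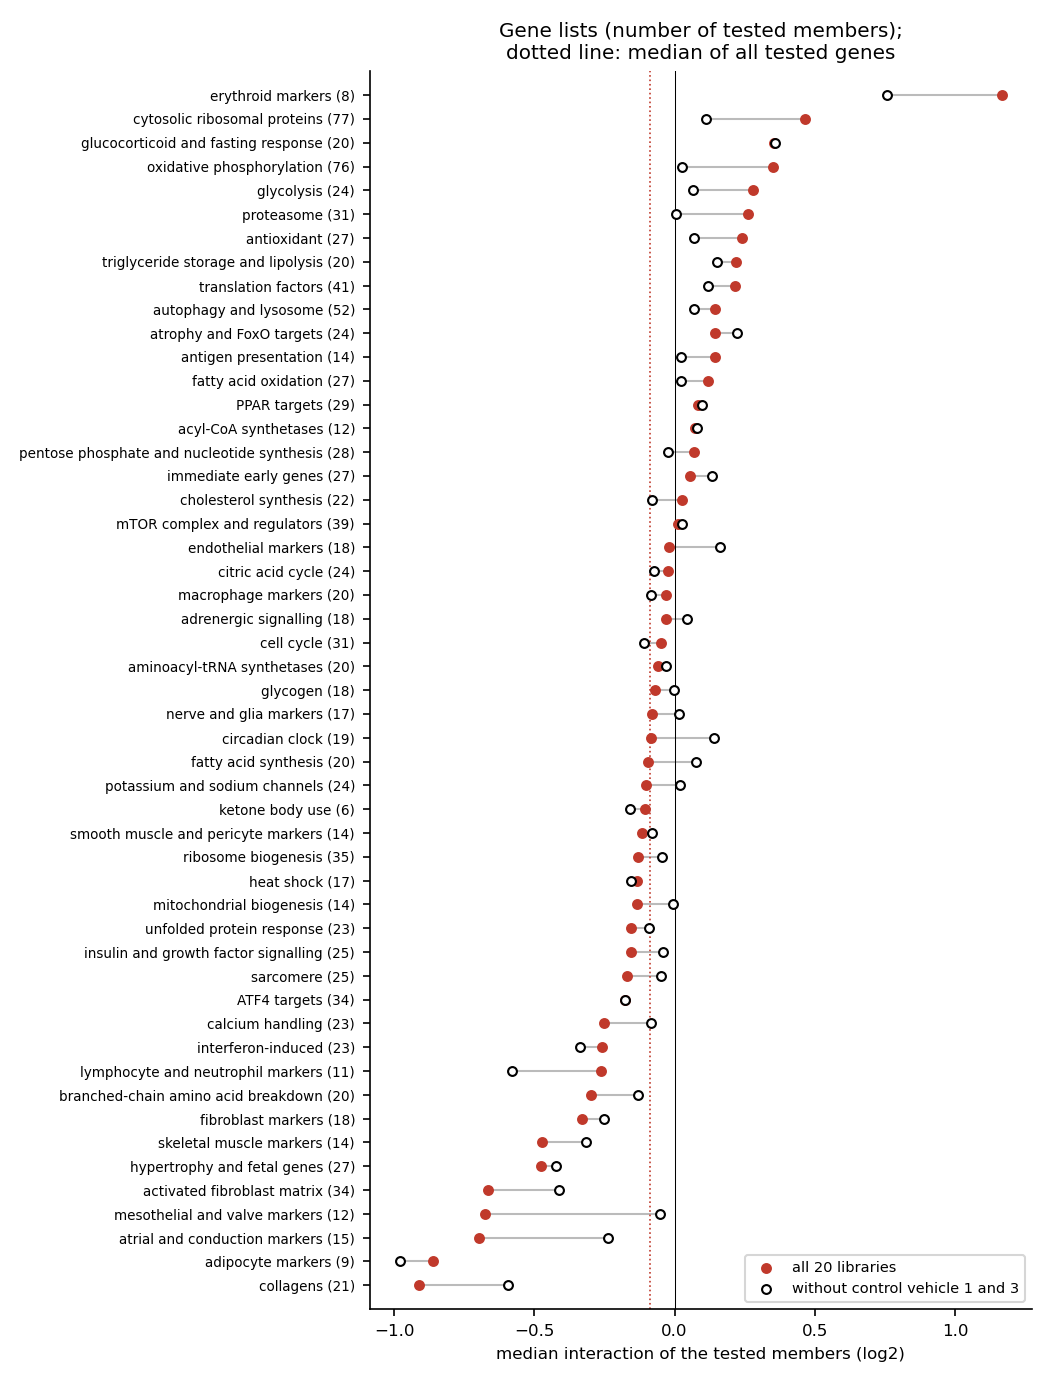
For each of 51 gene lists (y axis, with the number of tested members) the median interaction of the tested members (x axis, log2) is drawn with all 20 libraries (filled) and without control vehicle 1 and 3 (open), and the dotted line marks the median of all tested genes, -0.09. The collagen list stays below 0 in both, at -0.91 and -0.59, while the oxidative phosphorylation list goes from 0.35 to 0.03.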

How the data were processed

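Heart ventricle RNA of 20 libraries was analysed from the authors' deposited table of normalized expression signal per gene, with 21705 genes. Per the submitters' processing notes, the authors used RSEM, Picard 1.64 and SAMtools with the mouse build mm9, while the sources used here name no aligner. The deposited signal is not a count, so no test for counts was used, and whether counting used strand is not given. Values were taken as log2(value + 1), and only the 13548 genes reaching 10 in 5 or more libraries were tested. A fold on this scale understates the change of genes near 0. One limma 3.58.1 model in R 4.3.3 with a mean per group and an intensity trend gave each contrast, with Benjamini-Hochberg adjustment over all tested genes and a threshold of 0.05. Read depth was not recovered from the scaled signal, so no counting interval is given. The fit was tested on simulated data first. Acsl1 and Esr1 were also compared by exact permutation.

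Named genes were Acsl1, Esr1, up to 12 genes per direction with the smallest interaction p among those with a mean of at least 100, up to 4 genes per list with the smallest p, up to 12 genes called under vehicle, and fixed heart genes. Some genes that this rule names are left out of the text. The members, the 51 lists and the rule were chosen with earlier results of these data known. Genes whose values are printed by library were picked from the named ones after their values were seen. No coordinate of the expression data was used. Promoter windows came from RefSeq, GRCm38.p6, and were matched by symbol. Alternatives were pseudocounts (0.5 and 10), filters (none, or a mean of 100), quantile and median-ratio scaling, pool and replicate terms, array weights, no trend, covariates for atrial transcripts and transcript length (matched for 97.5% of tested genes), and leaving out libraries.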

Additional observations from a re-analysis of the deposited data

Results flagged for a closer look

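The values of 30 genes shown in the text, not all of them printed by library, were examined for a single library far from the others. With each of the 4 groups taken separately, this made 120 groups of 5 libraries. In 2 of them the gap between 1 library and its nearest neighbour took up more of the group's range than Dixon's 95% limit, where chance alone gives about 1 in 20 such groups. Knockout rapamycin library 4 had a Beta-s value of 45407, while the other libraries of its group had 13180 to 17348. Control vehicle library 4 had a Casq1 value of 466.5, while the others of its group had 121.6 to 150.8.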

How the results depend on the processing

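The number of genes called for the interaction was 0 with all libraries, in the 13 other settings and with each of the 20 libraries left out. The number at an unadjusted p under 0.05, 1124 in the report, was 482 when control vehicle 1 and 3 were both omitted and ran from 571 to 2402 with 1 library left out. It stayed within 1.5 times 1124 in the other settings. Of 3062 gene values for 238 named genes under the other settings, 22 had the other sign, and of 4760 with 1 library left out, 16 did. Most of these genes were named for a small interaction p, and the refits reuse most of the same libraries. Few changes of sign are therefore partly fixed by the choice, and no support is drawn from them.

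Replicate numbers do not pair the samples: 30 same-number pairs across groups had correlations from -0.51 to 0.43 with a median of 0.03, 10 were over 0.1, and 4 libraries correlated best with a library of their own number. With the replicate number as a block, 0 genes were called and 999 had an unadjusted p under 0.05. With the pool as a term, 1484 did, 352 above 0 and 1132 below. The number called for the knockout under vehicle, 33, was 56 with the pool term, 12 with array weights, 7 with the atrial covariate and 5 with the length covariate, and that under rapamycin, 3, was 14 with array weights. The causes were not tested. The unadjusted 95% interval of the interaction reached 0.56 to either side at the median gene, and estimates as large as 3.91 (Cyp1a1) did not pass adjustment.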

Other observations

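Several lists that the report does not describe held single genes with small interaction p-values, none of which passed adjustment. Klf2, a flow-responsive transcription factor gene, had an interaction of 0.89 (SE 0.34), and Egr1, an immediate early gene, had -1.72 (SE 0.74). Ptprc, which encodes the leukocyte antigen CD45, averaged 56.0 in control vehicle and 153.5 in knockout vehicle hearts and 105.0 and 107.3 under rapamycin, with an interaction of -1.37 (SE 0.44). Its list of lymphocyte and neutrophil markers was divided, with 5 of 11 tested genes above 0 and 6 below, 1 of those below at an unadjusted p under 0.05. The cell cycle genes Kif20a and E2f1 had -1.96 (SE 0.65) and -1.81 (SE 0.61) at means under 40 in every group. Among 31 tested cell cycle genes 13 lay above 0 and 18 below, 2 of those below at an unadjusted p under 0.05. The median of that list was -0.05, against -0.09 for all tested genes. Of 20 tested genes of the glucocorticoid and fasting response, 14 lay above 0 and 1 had an unadjusted p under 0.05 (2 without control vehicle 1 and 3), Errfi1 at 0.69 (SE 0.31). The list median was 0.35 and 0.36 without that pair. Among 22 tested cholesterol synthesis genes, 1 had an unadjusted p under 0.05 above 0 and 4 below (0 and 2 without control vehicle 1 and 3). Fdft1, the squalene synthase gene, had 0.44 (SE 0.17), while Idi1, Sqle and Cyp51 had -0.74 (SE 0.26), -1.01 (SE 0.46) and -0.34 (SE 0.14), with Sqle at -0.60 without the pair.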
